A study of Mus musculus with 26 samples.

Results

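Nuclei of the neuron line before and after sorting were compared in 8 of the series' 26 libraries: all 4 libraries of sorted nuclei and all 4 of presort nuclei that carry the neuron label and line in their titles and characteristics. The mice, 6 to 12 weeks old and sampled as whole brain, carried the transgene Tg(Snap25-EGfp/Rpl10a)JD362Htz on a B6.FVB background. In it, Snap25 sequences drive GFP, a green fluorescent protein, fused to ribosomal protein L10a. Both groups carried this transgene, and each held libraries from 2 females and 2 males. Each library came from 1 mouse, and per the design text the presort RNA was taken from the same mice as the sorted RNA. The astrocyte line (Aldh1l1) and the oligodendrocyte line (Cnp) carry the same fusion under other promoters and supplied 8 further nuclear libraries each. No source used here gives the sort gate or the yield.

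Snap25 encodes a SNARE protein of the synaptic terminal that is expressed by most neurons, so its regulatory sequences label neurons broadly rather than 1 type. Ribosomal proteins are imported into the nucleolus to build ribosomal subunits, and a GFP fusion of L10a therefore marks nuclei as well as ribosomes, which lets nuclei be isolated by fluorescence. Nuclear RNA is rich in unspliced transcripts and retained noncoding RNAs. A whole-brain suspension of nuclei also holds astrocytes, oligodendrocytes and their precursors, microglia, vascular, meningeal and choroid plexus cells. The comparison addresses which transcripts the sort enriched and which it depleted.

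Values are given as normalised CPM, the counts of a library scaled to a common total, always in the order presort replicates 1, 3, 25 and 27 and sorted replicates 2, 4, 26 and 28, of which the first pair of each group is male and the second female. Presort libraries held 234547 to 306296 counts and sorted libraries 2394993 to 2654141, so the depth difference cannot be told apart from the sort. A floor of 3 counts equals 8.87 to 12.6 CPM in the presort and 1.21 to 1.30 CPM in the sorted libraries. Xist, the noncoding RNA of the inactive X chromosome, stood at 36.3, 2.96, 6899 and 7322 CPM before and 7.69, 3.7, 5041 and 6369.9 CPM after the sort, high in the libraries labelled female and low in those labelled male. In bulk RNA, fewer cells of a type and less RNA per cell cannot be told apart.

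More genes lost than gained relative abundance on sorting. Of 11024 genes tested with the quasi-likelihood test of edgeR, 562 fell (5.1%) and 140 rose (1.27%) at a Benjamini-Hochberg adjusted p under 0.05, which is 6.37% in either direction. All 4 sorted values lay above all 4 presort values for 710 genes (6.44%) and below them for 835 (7.57%). The median log2 fold change (sorted minus presort) was -2.44 among the 562 genes that fell and 1.05 among the 140 that rose, against 0.07 over all genes tested. When neighbouring replicate numbers (1 and 2, 3 and 4, 25 and 26, 27 and 28) entered the fit as pairs, 904 genes fell (8.2%) and 546 rose (4.95%), among them 561 and 140 of the calls above. Without sorted replicate 2 the counts were 966 lower and 317 higher, and without any other single library 389 to 475 lower and 61 to 107 higher. Of the 140 higher calls 53 were kept without presort replicate 25 and 89 without sorted replicate 4. With all libraries thinned to the shallowest total, 225 genes fell and 63 rose of 5075 tested, and a fit over all 24 nuclear libraries gave 535 and 18.

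**Figure D1:**
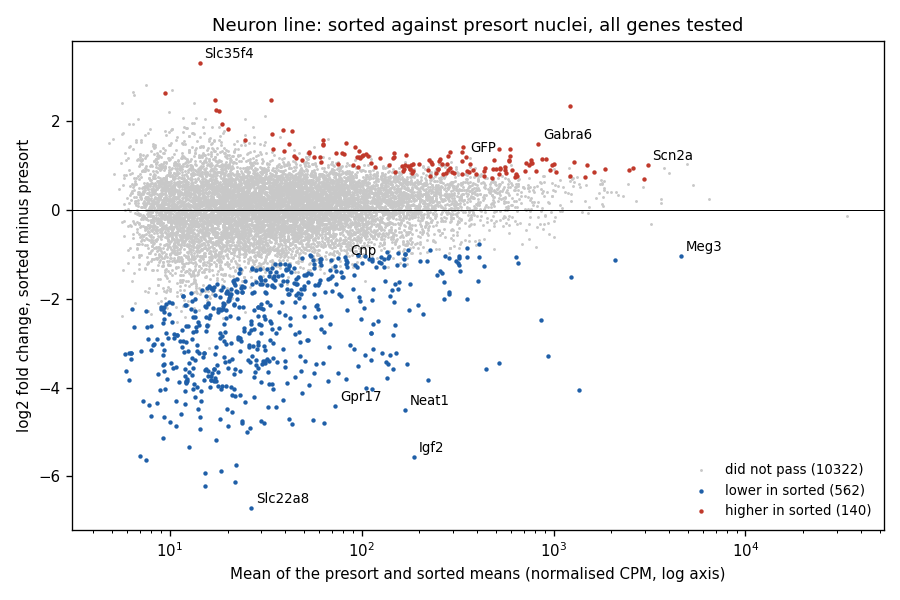
Log2 fold change of each of the 11024 genes tested (sorted minus presort, vertical axis) against the mean of its group means (normalised CPM, log axis). Genes that passed are coloured; the 562 lower genes (blue) reach down to -6.70, and the 140 higher genes (red) have a median of 1.05.

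The transgene rose with the sort. GFP counts corresponded to 267, 198, 146 and 239 CPM in the presort libraries and 558, 570.5, 428 and 378 CPM in the sorted libraries, and the groups did not overlap (log2 fold change 1.19 ± 0.25 (SE), adjusted p = 0.00848). Snap25 was at 511, 491, 817 and 844 CPM before and 701, 966, 1030.3 and 1418 CPM after the sort, with overlapping groups, and did not pass (log2 fold change 0.63 ± 0.26 (SE), adjusted p = 0.191). Within the pairs each sorted library was above its presort partner, and the paired fit gave an adjusted p of 0.0154; without sorted replicate 2 the unpaired value was 0.0472. Rpl10a, whose counts may include reads of the fusion, was at 129, 130.03, 116 and 139 CPM and 210.1, 229, 201 and 169 CPM. Its groups did not overlap, but it did not pass (log2 fold change 0.66 ± 0.23 (SE), adjusted p = 0.11; paired adjusted p = 0.0378).

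Cnp, a myelin phosphodiesterase, fell from 122, 103, 101 and 126 CPM to 54.6, 73.2, 42.4 and 37 CPM (log2 fold change -1.12 ± 0.29 (SE), adjusted p = 0.029). That call was lost without presort replicate 25, 27, 1 or 3, or sorted replicate 26 or 28 (highest adjusted p = 0.0958). Aldh1l1, a folate enzyme of astrocytes, had 10 counts in the presort group and 49 in the deeper sorted group, too few to be tested. It stood at 19.8, 2.96, 3.73 and 8.4 CPM before and 7.29, 5.76, 3.03 and 4.06 CPM after the sort.

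**Figure D2:**
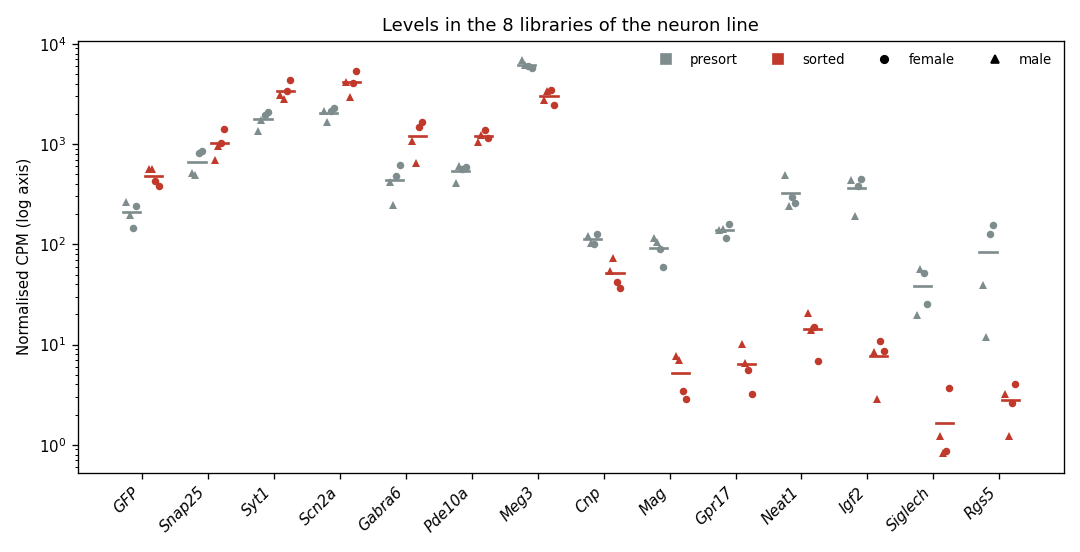
Normalised CPM (log axis) of 14 genes in each of the 8 libraries, presort in grey and sorted in red, females as circles and males as triangles, with horizontal bars at the group means. GFP, Scn2a, Gabra6 and Pde10a lie higher in every sorted library than in any presort library, whereas Mag, Gpr17, Neat1, Igf2, Siglech and Rgs5 lie lower in every sorted library.

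The 10 largest falls included growth factor, transporter, adhesion and immune genes. Igf2, a growth factor made in the adult brain mainly by meninges and choroid plexus, went from 438, 192, 384 and 449 CPM to 8.5, 2.88, 10.8 and 8.53 CPM, 2.1% of its presort level (log2 fold change -5.56 ± 0.41 (SE), adjusted p = 2.45e-06). Igf2 lies on chromosome 7 from 142650766 to 142666816 in GENCODE M21 (GRCm38). Slc22a8, an organic anion transporter of brain barriers, went from 33, 53.2, 82.1 and 42 CPM to 0.81, 0, 0 and 0.813 CPM, the lowest log2 fold change of the 11024 genes at -6.70 ± 0.64 (SE; adjusted p = 1.37e-05). The sorted group held 4 of its counts in all. Its relative Slc22a6 had 33 presort and 3 sorted counts and was 92.7 times higher before the sort (95% interval 29.1 to 473).

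Als2cl, Slco2b1, Cdh1 and Sorbs3 had log2 fold changes of -6.13, -5.93, -5.87 and -5.75. Cdh1 encodes the epithelial adhesion protein E-cadherin and Slco2b1 another organic anion transporter. H2-Aa, a class II antigen presentation gene, went from 33, 17.7, 22.4 and 25.2 CPM to 0.81, 0, 0 and 1.22 CPM (log2 fold change -5.34 ± 0.72 (SE), adjusted p = 0.0003). Cd33, a lectin of myeloid cells, had 17 presort and 2 sorted counts and was 71.7 times higher before the sort (95% interval 17 to 639). Csf3r, the receptor for granulocyte colony-stimulating factor, had 16 and 2 and was 67.4 times higher before the sort (95% interval 15.9 to 605). These intervals are exact and cover counting error only. The 10 genes were picked among called genes whose groups did not overlap, so their lack of overlap was a condition of the choice. Those with few sorted counts were tested through their presort values, so the filter also favours falls here.

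Astrocyte genes fell as a group. Of 27 listed markers 25 were tested; 18 fell, 0 rose and 7 did not pass, against 5.1% of all genes lower, and the list median was -2.58. Plpp3, a lipid phosphatase, was at 195, 136, 187 and 185 CPM and 24.7, 15.2, 11.7 and 8.94 CPM (log2 fold change -3.52 ± 0.34 (SE), adjusted p = 1.37e-05). S1pr1, a sphingosine phosphate receptor shared with endothelium, was at 191, 127, 249.97 and 252 CPM and 27.9, 23, 17.3 and 24 CPM (log2 fold change -3.14 ± 0.30 (SE), adjusted p = 1.37e-05). The sorted values of both genes lay below every presort value. The glutamate transporters Slc1a3 and Slc1a2 fell to 16.6% and 35% of their presort means, the water channel Aqp4 to 20.8%, the gap junction genes Gja1 and Gjb6 to 10.7% and 7.77%, and the lipid carrier Apoe to 17.8%.

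The other 7 tested astrocyte genes did not pass. Slc4a4, a bicarbonate cotransporter, stood at 475, 339.9, 709 and 634 CPM and 528, 599, 595 and 724 CPM with overlapping groups (log2 fold change 0.18 ± 0.24 (SE), adjusted p = 0.729). Aldoc, a glycolytic enzyme that Purkinje cells also express, stood at 206 CPM in presort and 154 CPM in sorted nuclei (log2 fold change -0.42 ± 0.27 (SE), adjusted p = 0.412). Of 16 listed astrocyte transcription factors 6 were too low to test, and over all genes tested 5.1% fell. Among the 10 tested factors 4 fell: the helix-loop-helix inhibitor Id3 (log2 fold change -4.03 ± 0.61 (SE), adjusted p = 0.000783), the Notch target Hes5 (log2 fold change -3.82), the RNA-binding regulator Zfp36l1 (log2 fold change -3.63 ± 0.51 (SE), adjusted p = 0.000409) and Rfx4 (log2 fold change -2.04 ± 0.45 (SE), adjusted p = 0.0109). Rfx4 lost its call without presort replicate 1 (highest adjusted p = 0.0913). Nfia stood at 364 CPM in presort and 366 CPM in sorted nuclei (log2 fold change 0.01 ± 0.23 (SE), adjusted p = 0.992), and its relative Nfib at 369, 322, 391.75 and 349 CPM and 511, 476, 512 and 559 CPM, without overlap. Nfib did not pass with edgeR unpaired but did in the paired fit and with DESeq2 (adjusted p = 0.148, 0.0384 and 0.0455), and both factors are also expressed by neurons.

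Oligodendrocyte genes fell with 1 exception. Of 27 markers 23 were tested, 22 fell and 1 rose, against 5.1% and 1.27% of all genes, with a median of -3.04. Mag, an adhesion protein of the inner myelin membrane, went from 115, 106, 89.5 and 58.8 CPM to 7.69, 6.99, 3.46 and 2.84 CPM, 5.67% of its presort mean (log2 fold change -4.12 ± 0.40 (SE), adjusted p = 1.37e-05). Mobp, a basic protein of myelin, went from 307, 228, 243 and 235 CPM to 13.4, 33.7, 28.5 and 15.8 CPM (log2 fold change -3.46 ± 0.33 (SE), adjusted p = 1.37e-05). Neither gene overlapped between groups. The lineage factors Olig1, Olig2, Sox10 and Myrf fell to 9.35%, 5.85%, 16.3% and 11% of their presort means. Of the genes that fell, Mbp and Cnp kept the most, 45.9% and 45.8% of their presort means.

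The exception was St18, a zinc finger factor of the Myt1 family that is used as an oligodendrocyte marker and is also found in some neurons. It rose from 257, 216, 261 and 265 CPM to 510.4, 321, 484 and 523 CPM with no overlap (log2 fold change 0.88 ± 0.23 (SE), adjusted p = 0.0299). The call was lost without presort replicate 25, 27, 1 or 3, or sorted replicate 26 or 28 (highest adjusted p = 0.0946), though every sorted library stayed above every presort one.

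Oligodendrocyte precursor genes fell in 11 of 13 tested, against 5.1% of all genes, with a median of -2.33. Gpr17, a receptor of committed precursors, went from 138, 142, 116 and 159.6 CPM to 10.1, 6.58, 5.62 and 3.25 CPM (log2 fold change -4.42 ± 0.36 (SE), adjusted p = 3.92e-06). Pdgfra, the receptor that sustains precursor division, went from 105, 76.8, 108 and 109 CPM to 9.31, 4.52, 4.75 and 6.91 CPM (log2 fold change -3.94 ± 0.34 (SE), adjusted p = 6.9e-06), and the proteoglycan gene Bcan from 162, 109, 104 and 88.2 CPM to 21, 8.64, 4.75 and 7.72 CPM (log2 fold change -3.45 ± 0.42 (SE), adjusted p = 0.000131). The sorted level of each was at most 9.09% of its presort mean. Tnr, which inhibitory neurons also express, stood at 69.6 CPM in presort and 69.7 CPM in sorted nuclei (log2 fold change 0.00 ± 0.27 (SE), adjusted p = 0.999), and Bcas1 at 111 CPM in presort and 60.7 CPM in sorted nuclei (adjusted p = 0.109 unpaired and 0.0424 paired).

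In the microglial list 8 of 12 tested genes fell, against 5.1% of all genes (10 in the paired fit, against 8.2%), with a median of -2.46. Of 17 listed, 5 were too low to test. Siglech, a microglial lectin, went from 19.8, 56.2, 52.2 and 25.2 CPM to 1.21, 0.823, 0.864 and 3.66 CPM (log2 fold change -4.48 ± 0.58 (SE), adjusted p = 0.00021), Tmem119 from 26.4, 14.8, 22.4 and 25.2 CPM to 2.43, 0.411, 0 and 0.406 CPM (log2 fold change -4.59 ± 0.73 (SE), adjusted p = 0.00108) and the complement gene C1qc from 29.7, 17.7, 14.9 and 21 CPM to 3.64, 1.65, 2.16 and 2.03 CPM (log2 fold change -3.09 ± 0.52 (SE), adjusted p = 0.00171). P2ry12, a purinergic receptor of the same cells, was at 13.2, 29.6, 37.3 and 8.4 CPM and 7.29, 11.1, 13 and 7.72 CPM and did not pass (log2 fold change -1.19 ± 0.49 (SE), adjusted p = 0.18). The presort values of these genes rest on a few counts per library, as the floor of 8.87 to 12.6 CPM shows. Microglial genes low after the sort could be tested only through their presort values, so the filter itself favours falls in this count and median.

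Of 7 endothelial genes tested 5 fell (median -2.79), among them Flt1, a receptor for vascular endothelial growth factor (log2 fold change -4.29 ± 0.69 (SE), adjusted p = 0.00114), Slco1c1, a thyroxine transporter (log2 fold change -4.71 ± 0.55 (SE), adjusted p = 8.8e-05), and the receptor phosphatase gene Ptprb (log2 fold change -2.79 ± 0.39 (SE), adjusted p = 0.000356). Slco1c1 is expressed by astrocytes too. Egfl7 stood at 75.6 CPM in presort and 29.7 CPM in sorted nuclei, and Tek at 19.8 and 11.9 CPM, and neither passed (adjusted p = 0.104 and 0.429). All 9 mural and fibroblast genes tested fell, with the lowest median of the lists at -4.21. Over all genes tested 5.1% fell. Of 16 endothelial and 15 mural and fibroblast genes listed, 9 and 6 were too low to test. A gene low in all sorted libraries could be tested only through its presort values, so the filter itself favours falls in these counts and medians. The same holds above for oligodendrocyte and precursor genes low after the sort, such as Mag and Gpr17. Rgs5, a pericyte regulator of G protein signalling, was at 39.6, 11.8, 127 and 155 CPM before and 3.24, 1.23, 2.59 and 4.06 CPM after the sort (log2 fold change -4.82 ± 0.65 (SE), adjusted p = 0.000291). Pdgfrb, the pericyte receptor for platelet-derived growth factor, fell to 3.5% and the collagen gene Col1a2 to 5.12% of its presort mean.

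Ttr, the thyroid hormone carrier made by choroid plexus epithelium, fell from 729, 709, 843 and 983 CPM to 59.1, 81.4, 40.2 and 91.8 CPM (log2 fold change -3.58 ± 0.29 (SE), adjusted p = 3.92e-06) and was the only one of 4 ependymal and choroid genes tested to pass. Kcnj13 stood at 53.3 CPM in presort and 24.2 CPM in sorted nuclei, and Otx2 at 82.4 and 51.3 CPM (adjusted p = 0.128 and 0.253; Kcnj13 paired adjusted p = 0.0267). Hba-a1, a haemoglobin gene, fell from 23.1, 11.8, 7.46 and 67.2 CPM to 4.05, 6.58, 1.3 and 7.31 CPM (log2 fold change -2.43 ± 0.67 (SE), adjusted p = 0.0414). That call was lost without presort replicate 27 or 1, or sorted replicate 26 or 4 (highest adjusted p = 0.269). In the paired fit, where 8.2% of all genes fell, 4 of 5 blood genes tested did, among them Hbb-bs and Hbb-bt (paired adjusted p = 0.0211 and 0.0262).

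As a share of each library, the 27 astrocyte genes made up 0.578 to 0.906% of presort counts and 0.196 to 0.251% of sorted counts, and the 27 oligodendrocyte genes 0.673 to 0.774% of presort counts and 0.201 to 0.246% of sorted counts. The sorted shares were 28.2% and 32% of the presort means. Precursor genes made up 0.123 to 0.165% of presort counts and 0.0329 to 0.0391% of sorted counts, and microglial genes 0.0324 to 0.0542% of presort counts and 0.00408 to 0.00956% of sorted counts. Endothelial genes made up 0.0411 to 0.0746% of presort counts and 0.00664 to 0.0144% of sorted counts. Mural and fibroblast genes kept the least, 4.77% of the presort share, and ependymal and choroid genes kept 16.3%. In these 7 lists the presort and sorted libraries did not overlap. In lists with at least 1 call in edgeR but 0 in the other direction, these had an unadjusted p under 0.05 in that other direction: 1 GABAergic gene, 1 astrocyte factor and 1 long noncoding RNA were higher, and 2 glutamatergic, 3 synaptic vesicle and 1 channel gene were lower. DESeq2 called 1 astrocyte factor higher and 1 synaptic vesicle gene and 1 channel gene lower.

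**Figure D3:**
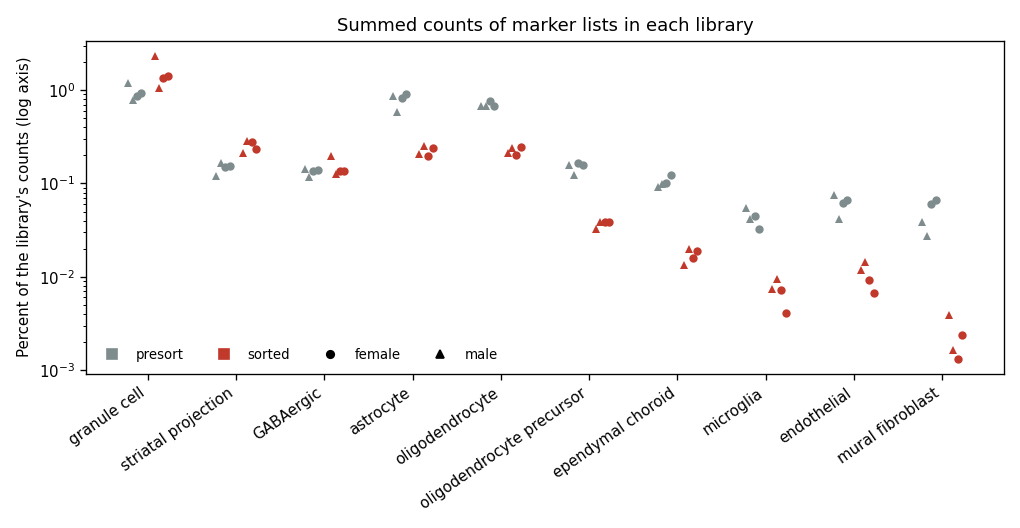
Percent of each library's counts (log axis) that fell on the summed genes of 10 marker lists, presort in grey and sorted in red, females as circles and males as triangles. The 7 glial, vascular and choroid lists drop without overlap, the striatal list rises without overlap, and the granule cell and GABAergic lists overlap.

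Most pan-neuronal genes did not pass, as in the table of all genes, where 6.37% passed in either direction. Of 26 pan-neuronal genes tested 1 rose, 1 fell and 24 did not pass, against 1.27% and 5.1% of all genes, and their median was 0.21 against 0.07 over all genes. In the paired fit 6 rose and 1 fell. Syt1, the calcium sensor of synaptic vesicles, was at 1338, 1729, 1929 and 2109 CPM before and 3107, 2815, 3375 and 4347 CPM after the sort, with no overlap (log2 fold change 0.94 ± 0.21 (SE), adjusted p = 0.0128); the call was lost without presort replicate 1, or sorted replicate 28 (highest adjusted p = 0.0527). Rbfox3, the NeuN antigen, was at 250.3 CPM in presort and 268 CPM in sorted nuclei (log2 fold change 0.09 ± 0.39 (SE), adjusted p = 0.925), Map2 at 1500.0 CPM in presort and 1951 CPM in sorted nuclei and Tubb3 at 31.6 CPM in presort and 31.9 CPM in sorted nuclei, and none of the 3 passed. The summed pan-neuronal genes made up 2.19 to 2.62% of presort counts and 2.19 to 2.72% of sorted counts.

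Markers of transmitter classes were counted against 1.27% of all genes higher and 5.1% lower. Of 18 glutamatergic genes 2 rose (Sv2b and Neurod1) and 0 fell, with a median of -0.04; the vesicular glutamate transporter Slc17a7 stood at 386 CPM in presort and 438 CPM in sorted nuclei (log2 fold change 0.18 ± 0.37 (SE), adjusted p = 0.836). The paired fit called 3 higher and 2 lower, the latter being the cortical genes Cux2 and Camk2a (paired adjusted p = 0.00925 and 0.023). Arpp21 stood at 870.3, 1158, 862 and 709.9 CPM and 1244, 1953, 1386 and 1419.9 CPM, without overlap (adjusted p = 0.0637 unpaired and 0.0034 paired). Of 12 GABAergic genes 0 rose and 1 fell. Among enzymes of GABA synthesis, Gad1 stood at 48 CPM in presort and 74.4 CPM in sorted nuclei, and Gad2 at 108 and 151 CPM (adjusted p = 0.275 and 0.51). Reln, which granule cells also make, stood at 511, 266, 414 and 416 CPM and 1419.9, 499.7, 671 and 628 CPM (adjusted p = 0.0771 unpaired and 0.00285 paired).

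Few markers of modulatory, thalamic, midbrain and hindbrain neurons had enough counts to be tested. Of 17 modulatory neuron genes 1 was tested: Slc18a2, the vesicular monoamine transporter, at 9.89, 5.91, 14.9 and 25.2 CPM and 10.1, 24.3, 23.8 and 19.9 CPM (log2 fold change 0.54 ± 0.50 (SE), adjusted p = 0.593). Of 5 thalamic, midbrain and hindbrain genes tested 1 fell and 0 rose, against 5.1% and 1.27% of all genes. Prkcd, a protein kinase C gene enriched in thalamic relay neurons, went from 115, 38.4, 67.2 and 79.8 CPM to 33.2, 28, 20.7 and 25.6 CPM without overlap (log2 fold change -1.47 ± 0.34 (SE), adjusted p = 0.0167), a call lost without presort replicate 27 or 1, or sorted replicate 26 (highest adjusted p = 0.0951). Tcf7l2, a factor of thalamic neurons and of oligodendrocytes, was at 33, 100.5, 56 and 63 CPM and 36.4, 36.2, 15.6 and 14.2 CPM (adjusted p = 0.0823 unpaired and 0.0233 paired). Of 8 Purkinje cell genes tested 0 passed in either direction with edgeR, paired or not, 0 had an unadjusted p under 0.05 and 0 passed with DESeq2; Itpr1, the inositol trisphosphate receptor, stood at 236 CPM in presort and 338 CPM in sorted nuclei (log2 fold change 0.52 ± 0.26 (SE), adjusted p = 0.286).

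Genes of cerebellar granule cells and of striatal projection neurons were among those that rose. Over all genes tested 1.27% rose and 5.1% fell, and in the paired fit 4.95% and 8.2%. In the granule cell list 4 of 12 tested genes rose and 0 fell (7 and 0 in the paired fit), with a median of 0.71 against 0.07 over all genes. Gabra6, a GABA-A receptor subunit largely restricted to granule cells, was at 415, 245, 481 and 613 CPM before and 1069, 644, 1474 and 1678 CPM after the sort; every sorted library was above every presort one (log2 fold change 1.48 ± 0.32 (SE), adjusted p = 0.00992). Neurod1, a granule cell transcription factor, was at 95.6, 82.7, 93.3 and 88.2 CPM and 252, 190.4, 139.6 and 226 CPM (log2 fold change 1.17 ± 0.26 (SE), adjusted p = 0.0128), and Chn2, a Rac regulator, at 214, 171, 164 and 181 CPM and 504, 287, 337 and 375 CPM (log2 fold change 1.04 ± 0.24 (SE), adjusted p = 0.0157). Chn2 lost its call without presort replicate 25, 27 or 3 (highest adjusted p = 0.0562). Cbln1, a synaptic organiser, rose to 201% of its presort mean. Cbln3 and Fat2 varied among the sorted libraries, at 6792, 3218, 4535 and 5884 CPM and 9521, 2832, 4212 and 3312 CPM, against 3514, 2113, 2858 and 3008 CPM and 3309.9, 1853, 2578 and 2554 CPM before the sort. Neither passed in the unpaired edgeR test and both did in the paired fit (adjusted p = 0.0541 and 0.107 unpaired, 0.000951 and 0.0058 paired) and without the count filter. Cbln3 also passed with DESeq2 (adjusted p = 0.0365), with sex as a covariate, in females and without sorted replicate 4. Zic1 stood at 503 CPM in presort and 612 CPM in sorted nuclei (log2 fold change 0.28 ± 0.28 (SE), adjusted p = 0.622).

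In the striatal list 2 of 12 rose and 0 fell (3 and 0 in the paired fit), and all 12 log2 fold changes were above 0 (median 0.68). Pde10a, a cyclic nucleotide phosphodiesterase of medium spiny neurons, was at 412, 603, 559.6 and 584 CPM and 1042, 1222, 1392 and 1141 CPM (log2 fold change 1.15 ± 0.21 (SE), adjusted p = 0.003). Penk, the enkephalin precursor, was at 122, 254, 216 and 252 CPM and 341, 561, 396 and 515 CPM (log2 fold change 1.10 ± 0.27 (SE), adjusted p = 0.0223), a call lost without presort replicate 25 or 1, or sorted replicate 28 or 4 (highest adjusted p = 0.072). Tac1, the precursor of substance P, stood at 59.5 CPM in presort and 138 CPM in sorted nuclei (adjusted p = 0.0562 unpaired and 0.0134 paired). Among dopamine receptors, Drd1 stood at 81.7 CPM in presort and 124 CPM in sorted nuclei, and Drd2 at 16.2 and 18.9 CPM, and neither passed (adjusted p = 0.259 and 0.854). As summed shares, granule cell genes made up 0.79 to 1.19% of presort counts and 1.06 to 2.34% of sorted counts, with sorted replicate 2 the highest, and striatal genes 0.121 to 0.165% of presort counts and 0.213 to 0.289% of sorted counts. The glial shares given above fell in the same libraries, and their part in these rises was not tested.

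The promoters of 3 genes above, 2 that rose and 1 that fell, are shown because granule cell and oligodendrocyte genes moved in opposite directions. They are RefSeq windows (GRCm38.p6) of 300 bases, from 250 before to 50 after the gene's start in RefSeq, 5′ to 3′ on the gene's strand, which is the minus strand for all 3; capitals mark CG dinucleotides. Gabra6 lies at chr11:42321023-42321322, Neurod1 at chr2:79456587-79456886 and Mag at chr7:30914814-30915113.
Gabra6: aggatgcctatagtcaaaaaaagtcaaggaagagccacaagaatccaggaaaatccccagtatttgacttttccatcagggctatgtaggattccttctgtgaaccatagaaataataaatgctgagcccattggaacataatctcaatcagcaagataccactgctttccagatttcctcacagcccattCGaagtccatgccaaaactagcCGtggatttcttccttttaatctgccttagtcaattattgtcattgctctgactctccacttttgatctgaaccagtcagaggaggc
Neurod1: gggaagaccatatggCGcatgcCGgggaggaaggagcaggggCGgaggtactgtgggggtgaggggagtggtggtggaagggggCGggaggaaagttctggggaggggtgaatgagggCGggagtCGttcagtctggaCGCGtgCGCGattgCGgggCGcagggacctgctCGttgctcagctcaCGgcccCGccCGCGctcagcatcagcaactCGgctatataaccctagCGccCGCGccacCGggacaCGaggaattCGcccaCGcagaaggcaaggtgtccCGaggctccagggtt
Mag: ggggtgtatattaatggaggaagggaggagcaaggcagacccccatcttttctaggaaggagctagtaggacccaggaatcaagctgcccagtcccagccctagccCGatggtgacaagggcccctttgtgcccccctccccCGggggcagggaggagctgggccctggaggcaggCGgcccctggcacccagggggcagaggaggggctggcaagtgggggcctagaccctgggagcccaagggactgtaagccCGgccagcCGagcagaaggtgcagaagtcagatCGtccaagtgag
Gabra6 had 2 CG dinucleotides, Mag 6 and Neurod1 26. The RefSeq start used lies 115 bases from the GENCODE start for Neurod1, 10 for Mag and 0 for Gabra6, and for Mag the nearest of 3 windows is shown.

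A promoter window was found for 8373 of the 11024 genes tested, 111 of the 140 that rose and 431 of the 562 that fell. The median number of CG dinucleotides was 18 among genes that rose, 16 among genes that fell and 22 among genes that were not called. The TATA motif TATAAA was searched on both strands of every window of a gene. It was found for 12.6% of genes that rose, 12.1% of genes that fell and 8.37% of all genes tested. Of all 27025 gene symbols with a window of that length, 15.7% had it. The GC box GGGCGG was in 72.1%, 68.0% and 70.8%, against 38.2%. ACAAAG, a core bound by SOX factors, was in 16.2%, 20.4% and 16.1%, against 21.0%, and the E-box CAGCTG in 20.7%, 21.3% and 17.8%, against 18.3%. These shares describe letters in the window and were not tested.

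Genes of synaptic release rose in part. Of 26 synaptic vesicle genes tested 6 rose and 0 fell, against 1.27% and 5.1% of all genes, with a median of 0.32. In the paired fit 8 rose and 2 fell, against 4.95% and 8.2%. Syt4, a synaptotagmin of dense core vesicles, was at 336, 287, 354 and 340.2 CPM before and 693, 544, 1012 and 1167 CPM after the sort (log2 fold change 1.38 ± 0.26 (SE), adjusted p = 0.00367). Unc13c, a priming factor of cerebellar synapses, was at 590.1, 355, 369 and 617 CPM and 1034, 873, 1171 and 1105 CPM (log2 fold change 1.12 ± 0.24 (SE), adjusted p = 0.00886), and the vesicle glycoprotein gene Sv2b at 498, 446, 552 and 470.5 CPM and 978, 797, 1088 and 1240.2 CPM (log2 fold change 1.06 ± 0.21 (SE), adjusted p = 0.0058). No value of these 3 genes overlapped between groups. Rims1 and Rims2, scaffolds of the active zone, rose to 217% and 189% of their presort means. Vamp1 and Vamp2, vesicle SNAREs, stood at 50.6% and 56.9% of their presort means and did not pass in the unpaired edgeR test (adjusted p = 0.079 and 0.101). Both passed in the paired fit (adjusted p = 0.0337 and 0.0311), with sex as a covariate and without sorted replicate 2, and Vamp1 with DESeq2 too (adjusted p = 0.0324). Pclo stood at 1609, 1017, 1522 and 1487 CPM and 2185, 1748, 2232 and 2218 CPM (adjusted p = 0.12 unpaired and 0.00958 paired), and Syt11 at 1752 CPM in presort and 1870.2 CPM in sorted nuclei (log2 fold change 0.09 ± 0.20 (SE), adjusted p = 0.843).

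Among receptors, 1 of 23 glutamate receptor genes and 1 of 15 GABA receptor genes tested rose, and 0 fell. Over all genes tested 1.27% rose and 5.1% fell, and in the paired fit 4.95% rose. Grik2, a kainate receptor subunit, was at 567, 529, 511 and 664 CPM and 1073, 1055, 1416 and 1462 CPM with no overlap (log2 fold change 1.14 ± 0.21 (SE), adjusted p = 0.00325). The AMPA receptor subunit Gria2 stood at 580.2, 632, 951 and 975 CPM and 595, 968, 1498 and 1693 CPM (adjusted p = 0.291 unpaired and 0.0393 paired), and the NMDA receptor subunit Grin1 at 1826, 2166, 1056 and 1458 CPM and 3862, 1862, 1663 and 1238 CPM, where sorted replicate 2 was the highest of the 8 (log2 fold change 0.41 ± 0.32 (SE), adjusted p = 0.518). In the GABA receptor list the one that rose was Gabra6, yet the list's median of 0.90 was the highest of the lists with 4 or more genes tested. The paired fit called 7 higher, Gabra6, Gabrb2, Gabrg3 and Gabrd among them. Without sorted replicate 2 the unpaired fit called 6. The metabotropic receptor gene Gabbr1 stood at 728 CPM in presort and 739 CPM in sorted nuclei (log2 fold change 0.02 ± 0.20 (SE), adjusted p = 0.967).

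Of 26 voltage-gated channel genes tested 4 rose and 0 fell, against 1.27% and 5.1% of all genes (6 and 1 in the paired fit, against 4.95% and 8.2%). The sodium channels Scn2a and Scn1a were at 2156, 1655, 2115 and 2298 CPM and 1302, 1392, 1138 and 1260.2 CPM before the sort. After it they were at 4127, 2978, 4064 and 5301 CPM and 2362, 2126, 2279.6 and 2894 CPM, without overlap (log2 fold change 1.002 ± 0.21 and 0.92 ± 0.19 (SE), adjusted p = 0.00848 and 0.00733). Scn8a, the sodium channel of the axon initial segment and nodes, stood at 1699 CPM in presort and 1856 CPM in sorted nuclei (log2 fold change 0.13 ± 0.20 (SE), adjusted p = 0.783). The potassium channel Kcnd2 rose to 192% of its presort mean. Cacna2d3, an auxiliary calcium channel subunit, was at 9.89, 14.8, 18.7 and 21 CPM and 35.6, 48.5, 67.8 and 56.9 CPM (log2 fold change 1.72 ± 0.38 (SE), adjusted p = 0.0125), a call lost without presort replicate 1 (highest adjusted p = 0.0544). Kcnc1, a channel of fast-spiking cells, was at 1038, 549.7, 563 and 664 CPM and 1566, 413, 459 and 404 CPM, where sorted replicate 2 stood far above the other 3; its log2 fold change was 0.01 with that library and -0.73 without it.

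In a list of 29 long genes of synaptic adhesion and excitability 6 rose and 0 fell (13 and 0 in the paired fit), with a median of 0.51. Over all genes tested 1.27% rose and 5.1% fell, and in the paired fit 4.95% and 8.2%. Ctnna2, a neuronal catenin, was at 52.7, 53.2, 67.2 and 71.4 CPM and 121, 159.6, 159 and 122 CPM (log2 fold change 1.21 ± 0.27 (SE), adjusted p = 0.0114), and Negr1, a neuronal adhesion molecule, at 389, 485, 347 and 643 CPM and 1079.5, 827, 962 and 1028 CPM (log2 fold change 1.07 ± 0.23 (SE), adjusted p = 0.0101). Both were without overlap. Ptprd stood at 2049.6 CPM in presort and 2543 CPM in sorted nuclei (log2 fold change 0.31 ± 0.22 (SE), adjusted p = 0.472). Over all called genes with an annotation, the median gene span was 162 kb among 137 that rose, 25.7 kb among 558 that fell and 27.5 kb among those not called. Spans over 100 kb made up 61.3%, 16.1% and 16.7%, a description that was not tested. Of 18 neuronal transcription factors tested 1 rose, Neurod1, and 0 fell (5 and 0 in the paired fit, which added Nfib, Myt1l, Camta1 and Satb1). Camta1 stood at 508, 429, 529.8 and 533 CPM and 993, 564, 873 and 770.5 CPM, without overlap (adjusted p = 0.0893 and 0.0124).

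**Figure D4:**
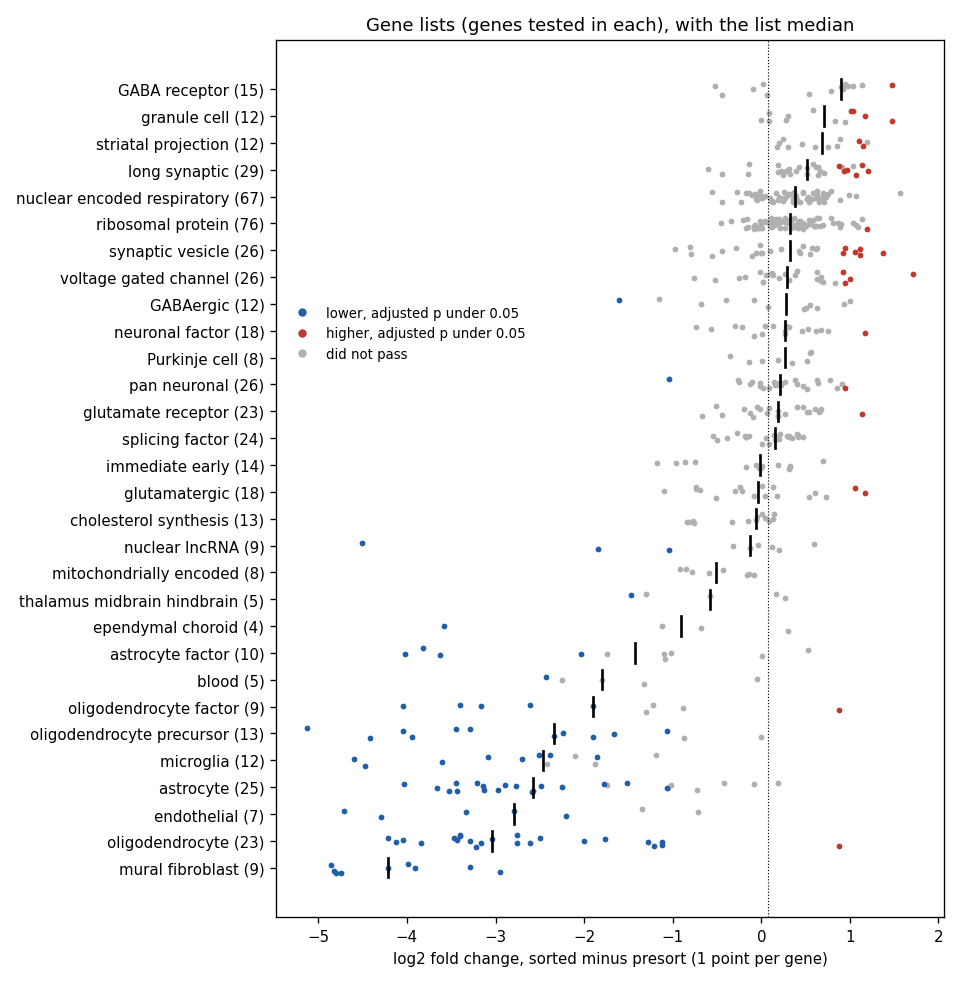
Log2 fold change (sorted minus presort) of each tested gene in the 30 lists with 4 or more genes tested, ordered by the list median (black bar), with genes that passed in colour and the median of all genes as a dotted line at 0.07. List medians run from -4.21 for mural and fibroblast genes to 0.90 for GABA receptors.

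The largest rises were in genes with few presort counts. Slc35f4, a solute carrier, had 3 presort counts, all in replicate 3, and was 10 times higher after the sort (95% interval 3.4 to 49). Samd12 also had 3 presort counts and was 6.29 times higher after the sort (95% interval 2.11 to 30.8). Gcdh, a mitochondrial lysine-degrading dehydrogenase, went from 6.59, 5.91, 7.46 and 0 CPM to 22.7, 16.9, 46.7 and 31.7 CPM (log2 fold change 2.48 ± 0.60 (SE), adjusted p = 0.0207), and Rasgef1b, an exchange factor for small GTPases, from 13.2, 2.96, 7.46 and 0 CPM to 31.6, 34.1, 36.7 and 13.8 CPM (log2 fold change 2.24 ± 0.62 (SE), adjusted p = 0.0418). They rest on 6 and 7 presort counts. Dync1i1, a dynein intermediate chain, went from 13.2, 20.7, 11.2 and 25.2 CPM to 64, 79.8, 44.9 and 53.6 CPM (log2 fold change 1.79 ± 0.37 (SE), adjusted p = 0.00807) and Dnah11, an axonemal dynein heavy chain, from 16.5, 11.8, 26.1 and 25.2 CPM to 72, 55.1, 58.8 and 79.6 CPM (log2 fold change 1.77 ± 0.35 (SE), adjusted p = 0.00587). Pms1 (a mismatch repair gene), Muc15 (a mucin) and Nenf (neudesin, a secreted factor) had log2 fold changes of 2.24, 1.82 and 1.58.

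Several of these calls were lost when 1 library was left out. Slc35f4 lost its call without presort replicate 25, 27 or 1 (highest adjusted p = 0.0668), and Samd12 without presort replicate 25, 27 or 1, or sorted replicate 26 or 4 (highest adjusted p = 0.135). Gcdh lost it without presort replicate 27, 1 or 3, or sorted replicate 26 (highest adjusted p = 0.0625), and Rasgef1b without presort replicate 25, 27 or 3, or sorted replicate 26 or 4 (highest adjusted p = 0.141). Pms1 lost it without presort replicate 25, 27, 1 or 3, or sorted replicate 26 or 28 (highest adjusted p = 0.101). Muc15 lost it without presort replicate 27, 1 or 3, or sorted replicate 26, 28 or 4 (highest adjusted p = 0.141), and Nenf without presort replicate 25, 1 or 3, or sorted replicate 26, 28 or 4 (highest adjusted p = 0.118). Dync1i1 and Dnah11 kept theirs in all 8 of these fits. Over all genes the naming rule selects, 15 of 30 that rose and 43 of 47 that fell passed whichever library was left out.

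Long noncoding RNAs retained in nuclei split. Of 9 tested 3 fell and 0 rose, against 5.1% and 1.27% of all genes (3 and 1 in the paired fit, against 8.2% and 4.95%). Neat1, the scaffold of paraspeckles, went from 495, 239, 298 and 260.4 CPM to 20.6, 14, 15.1 and 6.91 CPM, 4.38% of its presort mean (log2 fold change -4.50 ± 0.37 (SE), adjusted p = 4.07e-06); it lies on chromosome 19 from 5824708 to 5845478 (GRCm38). Miat went from 356, 627, 437 and 361 CPM to 115, 155, 169 and 56.9 CPM (log2 fold change -1.84 ± 0.32 (SE), adjusted p = 0.00231). Meg3, an imprinted RNA on chromosome 12 from 109541001 to 109571726 that is abundant in neurons, went from 6854, 6135, 6044 and 5700.2 CPM to 2753, 3358, 3430.5 and 2442 CPM (log2 fold change -1.05 ± 0.18 (SE), adjusted p = 0.00237). The groups of all 3 were apart, and Meg3 was the pan-neuronal gene that fell. Rian, from the same imprinted cluster, stood at 1417 CPM in presort and 2144 CPM in sorted nuclei (adjusted p = 0.224 unpaired and 0.0107 paired), above rather than below its presort level. Malat1, a nuclear speckle RNA, stood at 35328 CPM in presort and 32227 CPM in sorted nuclei with overlapping groups (log2 fold change -0.13 ± 0.19 (SE), adjusted p = 0.761). Without strand, counts of overlapping transcripts cannot be separated.

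Genes of basic cell functions were counted in the same way. Of 76 ribosomal protein genes tested 1 rose and 0 fell, where 1.27% of all genes rose and 5.1% fell, with a median of 0.32. In the paired fit 4 rose and 0 fell, against 4.95% and 8.2% of all genes. The one called unpaired was Rplp1, a protein of the ribosomal stalk, at 23.1, 53.2, 29.8 and 29.4 CPM and 89, 72, 72.6 and 80.9 CPM (log2 fold change 1.19 ± 0.32 (SE), adjusted p = 0.0346), which lost its call without presort replicate 25, 27 or 1, or sorted replicate 26, 28 or 4 (highest adjusted p = 0.12). Many ribosomal protein genes have near-identical pseudogenes, so their counts are uncertain. Of 67 nuclear-encoded respiratory genes 0 passed in either direction with edgeR or DESeq2 (4 higher and 0 lower at an unadjusted p under 0.05, 1 higher in the paired fit), with a median of 0.38; Atp5b stood at 402, 390.1, 377 and 433 CPM and 519, 478, 513 and 594 CPM (log2 fold change 0.39 ± 0.20 (SE), adjusted p = 0.288). Of 24 splicing factor genes and 14 immediate early genes 0 passed in either direction with edgeR, paired or not, or with DESeq2; 0 higher and 1 lower in each list had an unadjusted p under 0.05. Of the activity-regulated genes, Arc stood at 101 CPM in presort and 60.9 CPM in sorted nuclei, and Egr1 at 176 and 156 CPM (adjusted p = 0.298 and 0.805). Of 13 cholesterol synthesis genes 0 passed with edgeR or DESeq2 (2 lower at an unadjusted p under 0.05, 1 lower in the paired fit).

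The mitochondrially encoded mt-Co1 and mt-Nd4, subunits of respiratory complexes, were lower in both male libraries than in either female one, before and after the sort. mt-Co1 stood at 214, 168, 1052 and 924 CPM before and 128, 84.7, 930.0 and 955 CPM after the sort, and mt-Nd4 at 98.9, 79.8, 358 and 382 CPM and 48.6, 35, 211 and 211 CPM. Of 8 genes tested 0 passed unpaired with edgeR or DESeq2 and 0 had an unadjusted p under 0.05. In the paired fit, where 8.2% of all genes fell, 3 did, among them mt-Nd4 (adjusted p = 0.455 unpaired and 0.00474 paired). The 13 listed genes made up 0.0558 to 0.248% of presort counts and 0.0222 to 0.18% of sorted counts. Since all males have numbers from 1 to 4 and all females from 25 to 28, sex cannot be told apart from the run of numbers.

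The sort effect was also examined within each sex. Males alone (2 against 2) gave 130 lower and 0 higher genes with edgeR (408 higher at an unadjusted p under 0.05), and females alone 563 lower and 237 higher. All 30 genes of the naming rule that rose had the same sign in males, though 0 of them passed there, and 20 passed in females. Of the 47 that fell all had the same sign in both, and 33 passed in males and 44 in females. Both sets hold only genes called over the 2 sexes together, so the shared signs are not independent support. A test of the difference itself, females minus males, called 0 genes in either direction with edgeR and 0 with DESeq2, and 441 of 11024 genes (4.0%) had an unadjusted p under 0.05. The larger count in females is therefore not shown to be a difference between the sexes.

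The same sort in the astrocyte and oligodendrocyte lines gave the comparison. The lines share no libraries. Sorted oligodendrocyte line replicate 36 stood apart, with 7674 genes detected against 16223 to 16575 in the other 3 of its group and with 0 GFP counts, so counts of calls against this line are also given without it. In the astrocyte line, presort replicate 29 held 3274488 counts and sorted replicate 30 held 134357, the reverse of the usual depths. The interaction term, the neuron line's log2 fold change minus that of the other line, was called higher for 1494 (11.9%) and lower for 1476 (11.8%) of 12519 genes against the astrocyte line. Against the oligodendrocyte line it was called higher for 582 (5.13%) and lower for 722 (6.36%) of 11349 genes, and for 1193 and 1209 without replicate 36.

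The interaction of neuronal genes varied by list. Over all genes tested it was higher for 11.9% and lower for 11.8% against the astrocyte line. Against the oligodendrocyte line it was higher for 5.13% and lower for 6.36%. Of 26 pan-neuronal genes the interaction was higher in the neuron line for 20 against the astrocyte line and for 10 against the oligodendrocyte line (16 without replicate 36). Of 12 granule cell genes 10 were higher against each (11 without replicate 36 in the latter), and of 26 voltage-gated channel genes 24 and 15 (21 without replicate 36). Other neuronal lists had smaller counts. Of 8 Purkinje cell genes 2 were higher and 1 lower against the astrocyte line, and 0 passed with edgeR against the oligodendrocyte line, with or without replicate 36 (2 higher and 0 lower at an unadjusted p under 0.05 with it; DESeq2 called 1 higher). Of 6 thalamic, midbrain and hindbrain genes 0 were higher and 2 lower against the astrocyte line, and of 5 against the oligodendrocyte line 0 and 1. Of 12 GABAergic genes 5 were higher and 1 lower against the astrocyte line, and of 11 against the oligodendrocyte line 1 was higher and 0 lower (3 and 0 without replicate 36). Snap25 itself, which did not pass within the neuron line, had log2 fold changes of 0.63 there, -1.498 in the astrocyte line and -1.19 in the oligodendrocyte line. Its interactions were 2.10 ± 0.45 (SE), adjusted p = 0.00095, and 1.84 ± 0.57 (SE), adjusted p = 0.0392. Cbln3, with the smallest p of the genes higher against the astrocyte line that are in the lists, differed by 5.05 ± 0.35 (SE), adjusted p = 3.1e-10. Gabra6 differed by 5.24 ± 0.62 (SE), adjusted p = 7.16e-06 against the oligodendrocyte line (adjusted p = 1.47e-06 without replicate 36).

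Glial genes moved in opposite directions where the line labels that cell type. Of all genes tested, 11.8% were lower in interaction against the astrocyte line and 6.36% against the oligodendrocyte line. All 27 astrocyte genes were lower in interaction against the astrocyte line; Slc1a3, for example, had log2 fold changes of -2.58 in the neuron line and 3.66 in the astrocyte line (interaction -6.26 ± 0.42 (SE), adjusted p = 3.09e-10). Of 26 oligodendrocyte genes 25 were lower against the oligodendrocyte line, with and without replicate 36. Mag had -4.12 and 3.90 (interaction -7.99 ± 0.60 (SE), adjusted p = 5.38e-08). St18, which rose in the neuron line, rose in the oligodendrocyte line too (log2 fold change 1.88, adjusted p = 0.0155) and fell in the astrocyte line (-3.95, adjusted p = 1.54e-07).

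For cell types other than neurons, astrocytes and oligodendrocytes, the interaction differed by list. Of all genes tested 23.7% had an interaction against the astrocyte line (11.8% lower) and 11.5% against the oligodendrocyte line (6.36% lower). Without replicate 36 the latter was called higher for 1193 and lower for 1209 of 11349. Of 14 microglial genes 1 had an interaction against the astrocyte line, and of 13 against the oligodendrocyte line 0 did (2 without replicate 36). Siglech had log2 fold changes of -4.48 in the neuron line, -6.79 in the astrocyte line and -2.11 in the oligodendrocyte line. A p above the threshold does not show that the falls were equal. Mural and fibroblast genes were lower in interaction for 8 of 14 against the astrocyte line and for 1 of 13 against the oligodendrocyte line (5 without replicate 36). Choroid and ependymal genes were lower for 6 of 8 against the astrocyte line. Against the oligodendrocyte line 1 of 5 was higher and 0 lower. Within the astrocyte line 6 of 7 choroid and ependymal genes tested rose and 0 fell, where 13.7% of all genes rose and 15.4% fell. Of 15 endothelial genes 4 were lower and 1 higher against the astrocyte line. Of 13 against the oligodendrocyte line 0 passed with edgeR (2 lower without replicate 36, and 1 lower with DESeq2). Ttr rose in the astrocyte line (log2 fold change 3.02, adjusted p = 0.000159), and Igf2 had -0.02 there against -5.56 in the neuron line (interaction -5.55 ± 0.63 (SE), adjusted p = 2.22e-07).

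**Figure D5:**
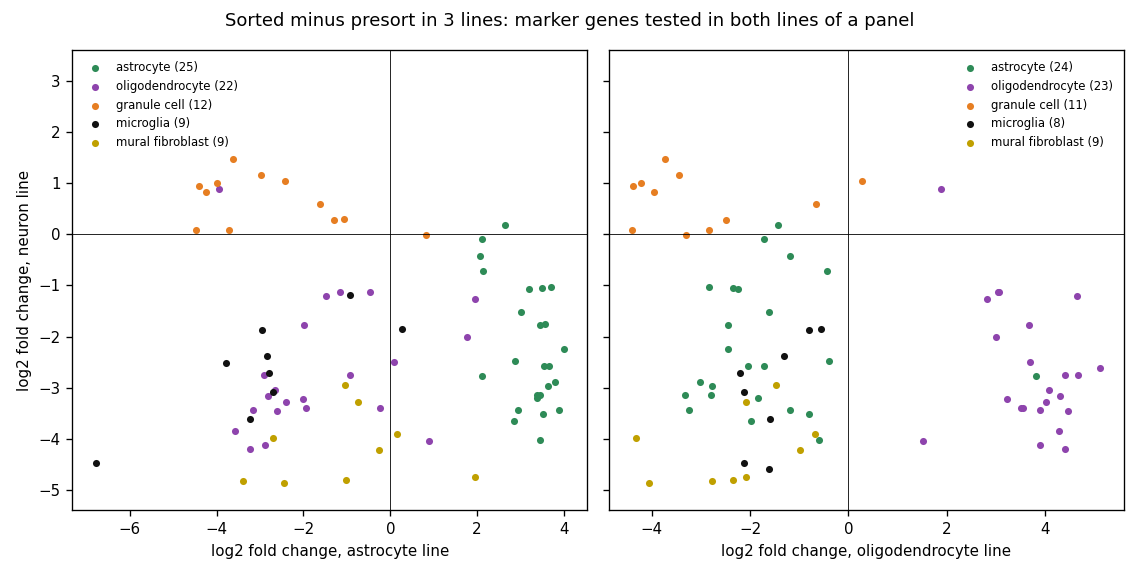
Log2 fold change (sorted minus presort) of marker genes in the neuron line (vertical axis) against the astrocyte line (left) and the oligodendrocyte line (right), 1 point per gene tested in both, coloured by list with the number of genes in brackets. Astrocyte genes lie low and to the right in the left panel and oligodendrocyte genes low and to the right in the right panel, while granule cell genes lie mostly high and to the left in both.

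Calls of opposite direction were shared between lines. Among 9006 genes tested in all lines, 16.4% fell in the astrocyte line and 3.28% in the oligodendrocyte line, and 11.5% and 4.54% rose. In the neuron line 132 rose, and 82 of them fell in the astrocyte line (62.1% of the 132 and 5.54% of the 1481 that fell there). In the oligodendrocyte line 43 fell (32.6%, and 14.6% of 295). Without replicate 36, over 6069 genes, the latter became 78 of 119 (65.5%, and 7.57% of 1031). Of the 507 that fell in the neuron line, 234 rose in the astrocyte line (46.2%, and 22.6% of 1036) and 114 in the oligodendrocyte line (22.5%, and 27.9% of 409; without replicate 36, 165 of 414, or 39.9%, and 17.5% of 943).

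With all libraries, 4 of the 507 genes fell in both other lines: Meg3, the smooth muscle genes Myh11 and Acta2, and Vwf, the von Willebrand factor gene of endothelium. These 4 are named because the count is small, not by the rule. The count rests on replicate 36. Without it 12 of 414 fell in both, among them Meg3, Myh11, the precursor gene Pdgfra, the pericyte gene Rgs5 and the endothelial genes Flt1 and Ptprb, against 2 of 412 with it among the genes tested both ways. Meg3 fell by 4.66 in the astrocyte line and by 2.28 in the oligodendrocyte line on the log2 scale, against -1.05 in the neuron line. Neat1 was 1 of 32 that fell in the neuron line and rose in both others (59 of 414 without replicate 36), with log2 fold changes of -4.50, 1.76 and 3.80. Its interactions were -6.29 ± 0.44 (SE), adjusted p = 3.1e-10 against the astrocyte line, and -8.16 ± 0.64 (SE), adjusted p = 5.38e-08 against the oligodendrocyte line. Conversely 38 of the 132 that rose in the neuron line fell in both others, among them Syt4, Sv2b, Scn2a, Unc13c, Gabra6, Neurod1 and Syt1, and 0 rose in both. Without replicate 36 these counts were 62 and 0 of 119, with the same 7 genes among the 62. The shares of all genes tested that fell or rose in both other lines were not counted. GFP rose in the astrocyte line as well (2.54, adjusted p = 6.95e-06), and in the oligodendrocyte line it was -0.71 (adjusted p = 0.725; 79 to 155 counts in the 3 other sorted libraries and 0 in replicate 36). Without replicate 36 it was -0.29 (adjusted p = 0.566). The GFP interaction against that line was 1.84 ± 0.89 (SE), adjusted p = 0.207 with replicate 36, and 1.46 ± 0.39 (SE), adjusted p = 0.00966 without it.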

How the data were processed

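RNA-seq of nuclei before and after sorting was analysed in 8 libraries of the neuron line, 1 mouse each, with 16 libraries of the 2 other lines for interactions. RNA was amplified with NuGEN Ovation V2, per the labels' protocols. The authors deposited a table of raw gene counts with 27502 entries, GFP among them, of which 26495 matched GENCODE M21. The submitters' processing notes name Trimmomatic, Bowtie2, STAR, bedtools and edgeR; no source used here gives the build or the strand setting.

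The deposited counts were tested with edgeR 4.0.16 (R 4.3.3): TMM factors, a minimum count of 10 (filterByExpr), the quasi-likelihood F test and Benjamini-Hochberg adjustment over all genes tested. That minimum is scaled to the median library size, so a gene could be tested with fewer than 10 counts in each presort library. Cd33, for example, was tested with 17 presort and 2 sorted counts in all. SE is the size of the log2 fold change over the square root of F. DESeq2 1.42.0 was an alternative. The main fit and the astrocyte line interaction were also run on simulated counts, with an outcome that is not reported here. TMM moves every log2 fold change by 0.117 against library totals. Presort libraries held 234547 to 306296 counts and sorted ones 2394993 to 2654141. Intervals of count ratios are exact 95% binomial ones; without molecular identifiers they cover counting error only. No 2 libraries agreed within sampling noise.

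Design text ties presort RNA to the sorted mice, but no label names the pairs. Neighbouring numbers were taken as pairs because deviations of neighbours from their group means correlated at 0.38 to 0.53 over 3956 genes above a mean of 50 CPM. Same-sex libraries that are not neighbours correlated at 0.14 to 0.42, so these values also carry sex. The block was an alternative, not the main test.

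The named genes are the transgene and driver genes, the 10 largest changes in each direction (no overlap, at least 10 CPM), per list the 3 smallest p in each direction and the 2 most abundant not passing, and 5 per direction in each interaction. Some genes that this rule selects are not reported here. Other genes in the text are members of the 31 lists. Members and lists were chosen with earlier results of these data known. Alternatives were no filter, RLE factors, sex as a covariate, each sex, all 24 nuclear libraries, thinning, leaving out each library, and, chosen after seeing the data, library totals and the oligodendrocyte line without replicate 36. The 2 cytoplasm libraries were not used here.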

Additional observations from a re-analysis of the deposited data

Results flagged for a closer look

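In 25 of 328 groups of 4 libraries (7.62%) 1 library lay far from the other 3 by Dixon's criterion, which chance meets in about 1 of 20 groups. In presort replicate 3 this applied to Als2cl at 20.69 CPM (others 48.5 to 52.75), Slc35f4 at 8.866 CPM (others 0 to 0), Plpp3 at 135.9 CPM (others 184.8 to 194.5), St18 at 215.7 CPM (others 257.1 to 264.6), Pdgfra at 76.84 CPM (others 105.5 to 109.2), the astrocyte factor list at 0.08456% of counts (others 0.09891 to 0.1016) and the nuclear lncRNA list at 4.644% of counts (others 5.402 to 5.503). In presort replicate 27 this applied to Hbb-bs at 71.41 CPM (others 33.58 to 36.26). In presort replicate 25 this applied to Id3 at 7.462 CPM (others 29.4 to 32.97), Sqle at 298.5 CPM (others 141.9 to 154.9) and the oligodendrocyte list at 0.774% of counts (others 0.6729 to 0.6847). In sorted replicate 2 this applied to Slco2b1 at 1.619 CPM (others 0 to 0), Csf3r at 0.8095 CPM (others 0 to 0), Tmem119 at 2.429 CPM (others 0 to 0.4113), Gabbr1 at 928.1 CPM (others 647 to 691.9), Kcnc1 at 1566 CPM (others 403.5 to 459.4), the gabaergic list at 0.1959% of counts (others 0.1277 to 0.1351) and the oligodendrocyte precursor list at 0.03285% of counts (others 0.03886 to 0.03906). In sorted replicate 26 this applied to Cd33 at 0.8643 CPM (others 0 to 0), Muc15 at 49.27 CPM (others 24.29 to 26.32), Itpr1 at 229 CPM (others 362.1 to 387), Epb41 at 930 CPM (others 1340 to 1382) and the thalamus midbrain hindbrain list at 0.01963% of counts (others 0.02284 to 0.02332). In sorted replicate 28 this applied to Siglech at 3.657 CPM (others 0.8226 to 1.214). In sorted replicate 4 this applied to Pclo at 1748 CPM (others 2185 to 2232).

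The sort effect differed between lines by the test of the difference itself, for 1494 genes higher and 1476 lower in the neuron line than in the astrocyte line, and for 582 and 722 against the oligodendrocyte line. The differences in log2 fold change (± SE) with the smallest p against the astrocyte line, and listed genes among them, were Cbln3 5.05 ± 0.35, Neat1 -6.29 ± 0.44, Mir124a-1hg 5.39 ± 0.40, Trank1 4.51 ± 0.36, Trhde 5.32 ± 0.43, Tenm1 4.84 ± 0.39, Slc1a3 -6.26 ± 0.42, Gpr37l1 -7.35 ± 0.50 and Ntsr2 -6.54 ± 0.46 (all adjusted p at most 1.79e-09, edgeR). Against the oligodendrocyte line they were Gabra6 5.24 ± 0.62, Fat2 5.36 ± 0.63, Mobp -7.91 ± 0.59, Mag -7.99 ± 0.60, Scn2a 3.74 ± 0.42, Cnpy1 5.27 ± 0.47, Epb41 3.66 ± 0.40, Mal -7.01 ± 0.52 and Trf -6.14 ± 0.47 (all adjusted p at most 7.18e-06, edgeR). Sorted oligodendrocyte line replicate 36 had 0 GFP counts and 7674 genes detected, and without it the counts were 1193 and 1209.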

How the results depend on the processing

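The direction of the sort effect held for all 30 genes of the naming rule that rose and all 47 that fell in males alone, females alone, the paired fit, DESeq2, the fit over all 24 nuclear libraries and the fit on library totals. These genes were chosen as calls of the main fit to the same libraries, so the shared direction is not independent support. How many genes passed did not hold. The 140 higher genes became 383 without the count filter, 252 with DESeq2, 408 with sex as a covariate, 237 in females, 0 in males, 18 in the fit over all 24 nuclear libraries, 63 after thinning to the shallowest total and 81 on library totals without TMM factors, an alternative chosen after seeing the data. The 562 lower genes became 130 in males and 225 after thinning. Leaving out 1 library gave 61 to 317 higher and 389 to 966 lower genes, the highest of each without sorted replicate 2. The single-sex fits hold fewer libraries and the thinned fit fewer counts. The cause of the changed numbers was not tested.

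With the replicate block of neighbouring numbers 546 genes were higher and 904 lower, and all 30 and 47 genes of the naming rule that had passed did so again; where it added calls, the values stand beside the genes above.

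Against the astrocyte line the fit over all 24 nuclear libraries gave 856 higher and 873 lower. Against the oligodendrocyte line it gave 879 higher, DESeq2 gave 1069 higher, and leaving out 1 library gave 442 to 1193 higher and 582 to 1209 lower, the highest of each without sorted replicate 36. The difference between the sexes was called for 1 gene higher and 1 lower without the count filter.

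The genes reported here that changed sign had all missed the threshold (values are log2 fold changes). In females, Slc4a4 became -0.0268, Tnr -0.0414, Nfia -0.091, Malat1 0.0088, Gabbr1 -0.0781, Kcnc1 -0.5065 and Trank1 0.0309. With RLE size factors, Tnr became -0.0104 and Nfia -0.0017. With DESeq2, Tnr became -0.0108 and Nfia -0.001. With the replicate block, Tnr became -0.0009, Nfia -0.0111 and Kcnc1 -0.1997. After thinning, Tnr became -0.1065, Nfia -0.2419, Syt11 -0.0084, Gabbr1 -0.0958 and Kcnc1 -0.1553. Without TMM factors, Tnr became -0.1101, Nfia -0.1125, Syt11 -0.0231, Gabbr1 -0.1008 and Kcnc1 -0.1173. Without the count filter, Malat1 became 0.0155, mt-Co1 0.0258, Sqle 0.1071 and Trank1 0.0188. In males, Egr1 became 0.1347 and Sqle 0.2456. With sex as a covariate, Kcnc1 became -0.0872. Leaving out 1 library at a time gave ranges on both sides of 0 for Snhg11 (-0.1238 to 0.3992), Tnr (-0.1338 to 0.07), Zic1 (-0.0373 to 0.4061), Nfia (-0.0958 to 0.1108), Malat1 (-0.22 to 0.0194), Xist (-1.0801 to 0.3068), mt-Co1 (-0.6234 to 0.2815), Rps15a (-0.0137 to 0.5312), Egr1 (-0.3848 to 0.0595), Grin1 (-0.0365 to 0.5972), Gabbr1 (-0.1066 to 0.0806), Scn8a (-0.0301 to 0.1968), Kcnc1 (-0.7267 to 0.264), Sqle (-0.1661 to 0.2673), Mir124a-1hg (-0.05 to 0.244) and Trank1 (-0.2059 to 0.0155). Presort depth limits the values of all low genes, with a presort floor of 8.87 to 12.6 CPM. The count filter left out genes low in both groups, such as Aldh1l1. Slc35f4, with 3 presort and 254 sorted counts, was tested through its sorted values.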
